A study of Mus musculus with 27 samples.

Results

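The genes described here are 9 members of the interferon pathway: the transcription factors Stat2, Irf9, Irf1 and Irf7, and the response genes Ifit2, Bst2, Isg15, Ifit1 and Ifit3. They were taken by name and by no rule on their values, although earlier results of these data were known. All 9 have a row in both tables of FPKM (fragments scaled by transcript length and by the library's mapped fragments), which hold 23295 genes for parental cells and 24247 genes for shRNA cells. The libraries came from NMuMG cells, an epithelial line from mouse mammary gland, in which TGF-β starts an epithelial-to-mesenchymal transition. Parental cells were untreated or exposed to TGF-β for 8 h or 24 h. Control shRNA cells (C) carried an irrelevant shRNA, knockdown cells (KD) carried an shRNA against lamin B1 (Lmnb1), and both were infected, selected with puromycin and sampled at the same 3 times. Each of the 9 groups had 2 biological replicates, with TGF-β at 1 to 5 ng/ml per the labels. All cells of the shRNA table had been infected and all cells of the parental table had not, so infection, selection and the separate normalization of the tables cannot be told apart. The knockdown and the shRNA sequence that produced it cannot be told apart either.

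Type I interferons are secreted when a cell senses foreign or misplaced nucleic acid, and they bind a receptor made of Ifnar1 and Ifnar2. The receptor's kinases, Jak1 and Tyk2, phosphorylate STAT proteins, among them Stat2, which joins Irf9 in a complex that enters the nucleus and binds the interferon-stimulated response element (ISRE) in front of genes such as Isg15, Ifit1, Ifit2, Ifit3 and Bst2. Interferon γ uses another receptor, Ifngr1 and Ifngr2, with Jak1 and Jak2, and acts through the γ-activated sequence (GAS), by which Irf1 is induced. Many of these genes are also transcribed at a low level without interferon, and STAT and IRF factors can be engaged by other signals.

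Promoters of 7 of the 9 genes held letters of one or both elements, and these stretches are shown because such elements are the known binding sites of the pathway's factors. A match of letters does not show a bound site. They are given with flanking bases, 5′ to 3′ on the gene's strand, from RefSeq (GRCm38.p6), with every motif match in capitals. The windows are chr4:156200860-156200911 (minus strand) for Isg15, chr8:71537572-71537623 (minus strand) for Bst2, and chr10:128270261-128270300 (plus strand) for Stat2. On the plus strand follow chr11:53769909-53769947 for Irf1, chr19:34550444-34550476 for Ifit2, chr19:34583358-34583431 for Ifit3 and chr19:34640770-34640828 for Ifit1.
Isg15: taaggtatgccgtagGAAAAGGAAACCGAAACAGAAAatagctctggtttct
Bst2: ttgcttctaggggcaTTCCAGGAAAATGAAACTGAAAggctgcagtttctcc
Stat2: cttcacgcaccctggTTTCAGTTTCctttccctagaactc
Ifit3: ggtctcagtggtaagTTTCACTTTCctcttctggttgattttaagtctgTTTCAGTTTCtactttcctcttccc
Ifit1: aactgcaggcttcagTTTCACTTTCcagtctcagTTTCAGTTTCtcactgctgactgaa
Irf1: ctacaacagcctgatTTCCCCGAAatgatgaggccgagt
Ifit2: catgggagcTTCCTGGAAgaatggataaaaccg

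The ISRE was searched as GAAANNGAAA on both strands (TTTCNNTTTC on the other), and the GAS as TTCNNNGAA, which reads the same on both strands, in the 300 bases from 250 before to 50 after each transcription start site (TSS). An ISRE match was found for 5 of the 9 genes, against 3.99% of 27025 genes with a promoter (3.44% of 32851 promoters), and a GAS match for 3 of the 9, against 9.55% of genes (8.3% of promoters). Isg15 had 3 overlapping ISRE matches between positions -78 and -57 from its TSS. Bst2 had 2 overlapping ISRE matches, the first of which shared bases with a GAS match that began at -136. Ifit3 and Ifit1 had 2 separate ISRE matches each, Stat2 had 1 that began 222 bases upstream, and Irf1 and Ifit2 had a GAS match each, at 90 and 241 bases upstream. Irf9 and Irf7 had neither set of letters in this window. Among the other type I response genes of the pathway lists, 10 of 29 with a promoter held an ISRE match, and 6 of 12 γ-response genes did.

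Lamin B1 transcript was lower in the KD libraries at every time. Lmnb1 stood at 29.2 and 36.5 FPKM in untreated C and 9.01 and 9.27 in untreated KD, at 32.8 and 32.1 against 7.79 and 8.14 at 8 h, and at 18.4 and 17.9 against 4.37 and 7.52 at 24 h. The limma differences were -1.73, -1.90 and -1.5 on the log2(FPKM + 1) scale (adjusted p = 0.000573, 0.000189 and 0.000901). In a fit of the compared groups alone the 24 h difference did not pass (adjusted p = 0.0538). The KD libraries at 24 h had the lowest correlation with each other of any group (r = 0.983 over all genes, against up to 0.9945). This does not show which of them was apart. The second held the higher Lmnb1, and where leaving it out changed a call of the 9 genes, the value without it is given. The depth is unknown, since FPKM does not keep it, and the 10 most abundant genes took 11.4 to 40.4% of a library's FPKM. Krt8 (2024 to 3938 FPKM) and Krt18 (1720 to 3324 FPKM) were abundant, as in epithelial cells, although Epcam stayed at 0.171 to 3.15 FPKM. The 4 mesenchymal markers, mostly Vim, summed to 1265 to 2415 FPKM, untreated libraries included. The 6 leukocyte markers summed to 1.09 to 2.10 FPKM, nearly all of it Cd68, with Ptprc at or under 0.0178, and the 3 endothelial markers summed to 0.988 to 1.51 FPKM in parental and 0.0132 to 0.605 in shRNA libraries. In bulk RNA, fewer cells that express a gene and less RNA per cell cannot be told apart. The median of all tested genes lay at -0.14 and -0.13 (log2) in C and at -0.13 and -0.10 in KD after 8 h and 24 h of TGF-β, and quantile normalization moved these medians to between -0.03 and 0.00. With it, the share of called genes that were higher went from 30.2, 36.1, 33.9 and 39.8% to 46, 50, 46 and 50.1%. The directions of Irf1, Ifit2 and Bst2 under TGF-β were kept under both scalings.

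The 9 genes fell into a measurable and a very low set. Stat2, Irf9, Irf1, Ifit2 and Bst2 reached at least 1 FPKM in 2 or more libraries of each table and were tested among 11309 parental and 11450 shRNA genes. Irf7, Isg15, Ifit1 and Ifit3 did not, and no library held more than 0.645, 1.10, 0.109 and 0.428 FPKM of them. In the shRNA table Ifit2 passed mostly through its untreated libraries, since 1 treated library was above 1 FPKM, at 1.03. Across all 3 kinds of cells TGF-β went with more Irf1 and with less Ifit2 and Bst2, while Irf9 passed in no comparison on the deposited scale.

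**Figure D1:**
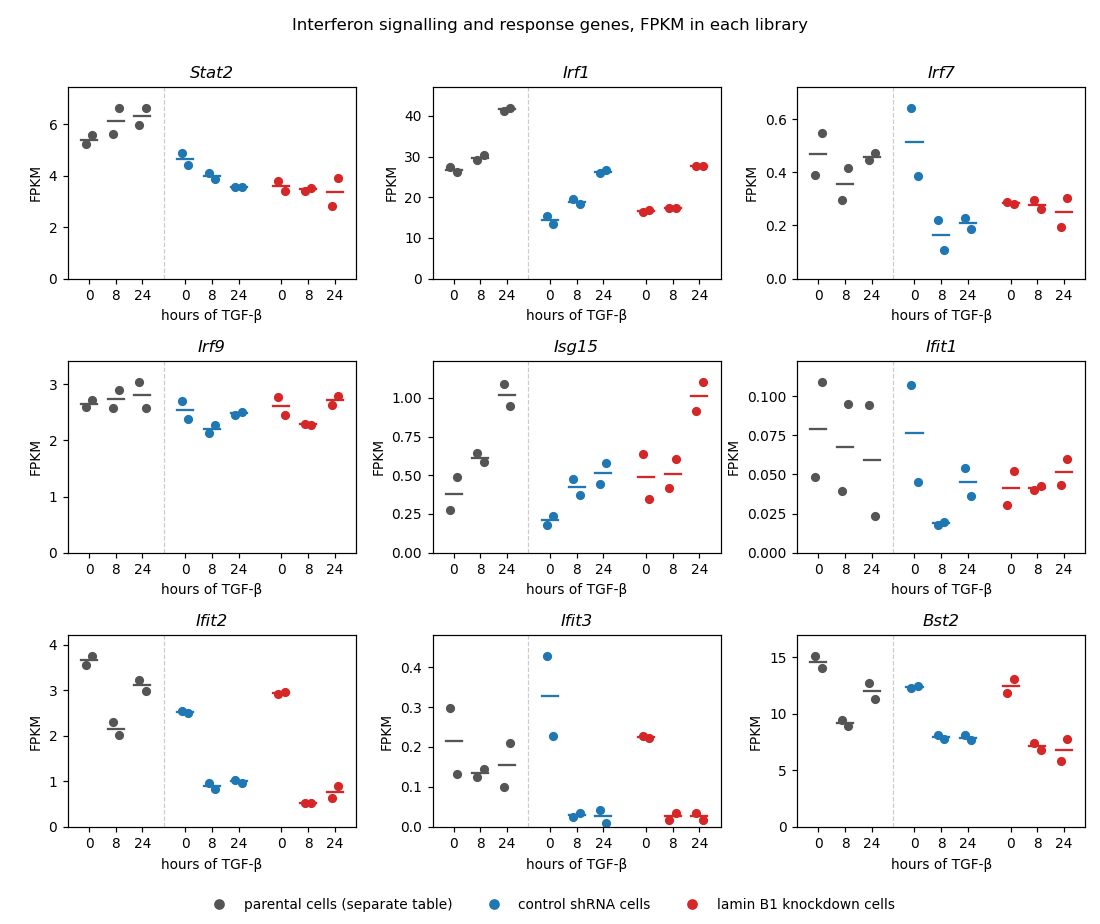
FPKM of each of the 9 genes (y axis, a scale of its own per gene, starting at 0) against hours of TGF-β (x axis), with 1 point per library and a bar at the group mean. Grey points are parental cells from a separately normalized table, blue points are control shRNA cells and red points are lamin B1 knockdown cells. Irf1 was highest at 24 h in all 3, up to 42.1 FPKM, and Ifit2 and Bst2 were highest without TGF-β.

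Stat2 (chr10:127707629-127729905, mm9, plus strand), a STAT of the type I complex, was measured at 5.21 and 5.59 FPKM in untreated parental cells, 5.60 and 6.62 at 8 h, and 5.96 and 6.65 at 24 h. In C it stood at 4.87 and 4.42, then 4.08 and 3.87, then 3.57 and 3.58. In KD it stood at 3.77 and 3.40, then 3.41 and 3.54, then 2.82 and 3.92. Parental libraries were thus a little higher with TGF-β and C libraries lower, in neither case with overlap, whereas the KD times overlapped. With all libraries, only the 24 h difference in C passed the test, at -0.30 ± 0.107 (SE; limma on log2(FPKM + 1), adjusted p = 0.0306), a level 0.769 times the untreated one. It did not pass after quantile normalization (-0.15, adjusted p = 0.239) or with no filter on low genes (adjusted p = 0.0599), and leaving out 1 library ended it in 3 of 4 fits, those without the first untreated or either 24 h C library (adjusted p = 0.0946 to 0.14). The parental differences were 0.15 at 8 h (adjusted p = 0.186) and 0.19 at 24 h (adjusted p = 0.0877). The first passed without the lower 8 h library (0.25, adjusted p = 0.0435), and the second in a fit of the compared groups alone (adjusted p = 0.0385). In KD the 24 h difference was -0.08 (adjusted p = 0.515), and it passed without the second 24 h library (-0.26, adjusted p = 0.0127).

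Irf9 (chr14:56222408-56228867, plus strand), the DNA-binding partner of Stat2, was the steadiest of the set. Its parental values were 2.59 and 2.73 FPKM untreated, 2.58 and 2.90 at 8 h, and 3.05 and 2.58 at 24 h. The C values were 2.70 and 2.38, 2.14 and 2.27, and 2.45 and 2.52, and the KD values 2.77 and 2.45, 2.30 and 2.28, and 2.64 and 2.80. All libraries lay between 2.14 and 3.05 FPKM, with the 8 h libraries of C and KD below their untreated ones and the other treated groups overlapping theirs. The log2 differences with TGF-β ran from -0.14 in C at 8 h to 0.06 in parental cells at 24 h, with adjusted p from 0.0953 to 0.798. After quantile normalization the 24 h KD difference was 0.22 and passed (adjusted p = 0.00824), which it did not on the deposited scale. Without the second untreated C library the 8 h difference in C passed as well (-0.21, adjusted p = 0.0379).

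Irf1 (chr11:53583516-53591876, plus strand), an IRF activator best known as a target of interferon γ, had the highest FPKM of the 9 at 24 h in all cells. In parental cells it rose from 27.3 and 26.2 FPKM to 29.1 and 30.4 at 8 h and 41.3 and 42.1 at 24 h. In C it rose from 15.4 and 13.5 to 19.6 and 18.3 and then 25.9 and 26.7. In KD it stood at 16.3 and 16.8, at 17.4 and 17.3 at 8 h, and at 27.6 and 27.6 at 24 h. No treated library overlapped the untreated ones of its own cells. At 24 h the level was 1.56 times the untreated one in parental cells (0.62 ± 0.0433, SE, log2 scale, limma adjusted p = 1.76e-05), 1.82 times in C (0.83 ± 0.0605, adjusted p = 2.79e-06) and 1.67 times in KD (0.71 ± 0.0605, adjusted p = 7.36e-06). The 8 h rise passed in parental cells (0.15 ± 0.0433, adjusted p = 0.0244) and in C (0.37 ± 0.0605, adjusted p = 0.000652), and not in KD (0.07, adjusted p = 0.352). In the fit with the 4 compared parental libraries alone the parental 8 h rise had an adjusted p of 0.0513, and without the lower untreated or the higher 8 h library it was 0.114 and 0.0898. After quantile normalization the KD value was 0.16 with an adjusted p of 0.0325.

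Ifit2 (chr19:34625184-34650909, plus strand) encodes a tetratricopeptide protein that binds RNA and restrains viruses. In parental cells it was measured at 3.56 and 3.76 FPKM untreated, 2.30 and 2.02 at 8 h, and 3.23 and 2.995 at 24 h. In C it went from 2.55 and 2.49 to 0.969 and 0.824 at 8 h and 1.03 and 0.970 at 24 h. In KD it went from 2.91 and 2.96 to 0.527 and 0.529 and then 0.641 and 0.889. Every treated library was below the untreated ones of its own cells, and parental cells at 24 h lay closer to their untreated level than at 8 h. The 8 h level was 0.590 times the untreated one in parental cells (-0.56 ± 0.0720, SE, log2 scale, limma adjusted p = 0.00074), 0.356 times in C (-0.89 ± 0.0747, adjusted p = 1.14e-05) and 0.180 times in KD (-1.36 ± 0.0747, adjusted p = 7.22e-07). At 24 h it was 0.396 times in C (-0.82, adjusted p = 1.18e-05) and 0.261 times in KD (-1.16, adjusted p = 1.12e-06), and the parental difference of -0.18 did not pass (adjusted p = 0.0574). That parental difference did pass after quantile normalization (-0.21, adjusted p = 0.0471) and in the compared groups alone (adjusted p = 0.0365).

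Bst2 (chr8:74058163-74061336, minus strand) encodes tetherin, a membrane protein that holds budding viruses at the cell surface. Parental cells held 15.1 and 14.0 FPKM untreated, 9.45 and 8.92 at 8 h, and 12.7 and 11.3 at 24 h. C held 12.3 and 12.5, then 8.15 and 7.76, then 8.09 and 7.64, and KD held 11.8 and 13.1, then 7.42 and 6.83, then 5.82 and 7.73. All treated libraries were below the untreated ones of the same cells, as for Ifit2, and again the parental level was nearer its start at 24 h than at 8 h. The 8 h level was 0.629 times the untreated one in parental cells (-0.61 ± 0.0685, SE, log2 scale, limma adjusted p = 0.000398), 0.643 times in C (-0.58 ± 0.105, adjusted p = 0.00121) and 0.572 times in KD (-0.73 ± 0.105, adjusted p = 0.000266). At 24 h it was 0.824 times in parental cells (-0.26, adjusted p = 0.0115), 0.635 times in C (-0.59, adjusted p = 0.00081) and 0.544 times in KD (-0.80, adjusted p = 0.000122). The parental 24 h call was lost without the higher untreated or the lower 24 h library (adjusted p = 0.0758 and 0.0815).

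Counted together, 3 of the 5 tested genes passed in parental cells at 8 h (54.5% of all tested genes did) and 2 at 24 h (70.5%). In C 3 passed at 8 h (64.3%) and 4 at 24 h (70.7%), and in KD 2 at 8 h (67.8%) and 3 at 24 h (71.9%). With 5 tested genes, these counts do not set them apart from the transcriptome. Their median log2 difference was 0.03 and 0.06 in parental cells, -0.18 and -0.30 in C, and -0.13 and -0.08 in KD, beside all-gene medians of -0.05 and -0.02, -0.14 and -0.13, and -0.13 and -0.10.

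**Figure D2:**
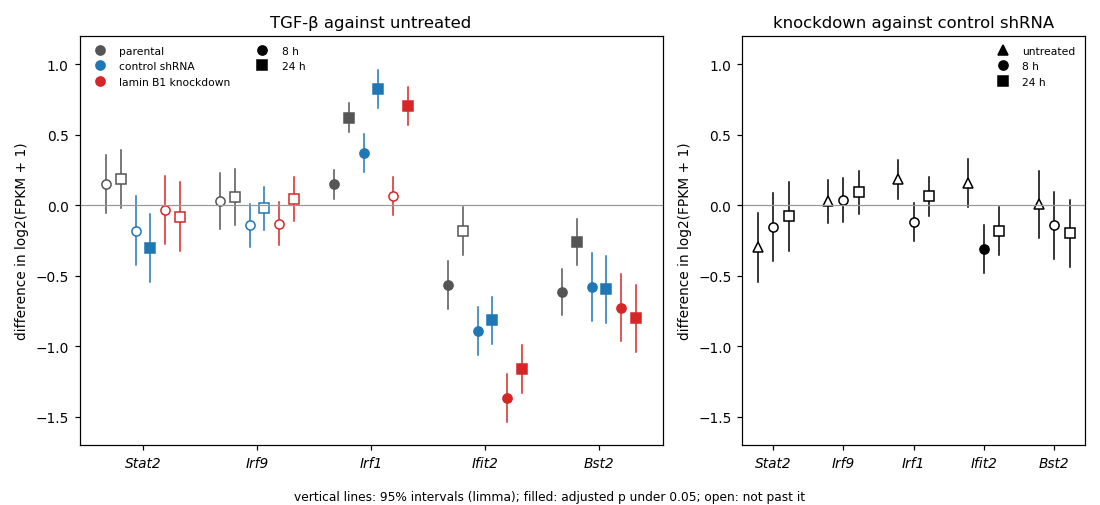
Difference in log2(FPKM + 1) (y axis) for the 5 tested genes (x axis), with TGF-β against untreated cells on the left (parental grey, control shRNA blue, knockdown red, circles 8 h and squares 24 h) and knockdown against control shRNA on the right (triangles untreated). Vertical lines are 95% intervals from limma and filled symbols passed an adjusted p of 0.05. Ifit2 in knockdown cells at 8 h lay lowest, at -1.36. On the right only Ifit2 at 8 h is filled, and every library of that comparison was under 1 FPKM.

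The low genes were read with no filter, over 17972 parental and 19170 shRNA genes, and the added constant of 1 makes their log2 differences small. Isg15 (chr4:155573533-155574927, minus strand), a ubiquitin-like protein that is conjugated to other proteins, was measured at 0.272 and 0.488 FPKM in untreated parental cells, 0.641 and 0.584 at 8 h, and 1.09 and 0.948 at 24 h. C gave 0.181 and 0.235, then 0.476 and 0.374, then 0.446 and 0.578, and KD gave 0.636 and 0.344, then 0.418 and 0.602, then 0.914 and 1.10. Both 24 h libraries were above both untreated ones in each kind of cells. The 24 h rise passed in parental cells (0.55, limma adjusted p = 0.00505, where 48.8% of genes passed with no filter), in C (0.32, adjusted p = 0.0347, 49.1%) and in KD (0.44, adjusted p = 0.00896, 50.6%).

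Irf7 (chr7:148448605-148452380, minus strand), the IRF that amplifies type I interferon production, was measured at 0.389 and 0.549 FPKM in untreated parental cells, 0.296 and 0.417 at 8 h, and 0.447 and 0.472 at 24 h. In C it went from 0.645 and 0.385 to 0.222 and 0.109 and to 0.230 and 0.186, and in KD it stood at 0.290 and 0.282, 0.296 and 0.262, and 0.194 and 0.305. The C libraries fell without overlap, and the parental and KD groups overlapped. The fall in C passed at 8 h (-0.37, limma adjusted p = 0.00777, where 42.1% of genes passed with no filter) and at 24 h (-0.32, adjusted p = 0.0131).

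Ifit3 (chr19:34658021-34663221) and Ifit1 (chr19:34715361-34724499), both on the plus strand beside Ifit2, encode related RNA-binding proteins. Ifit3 stood at 0.297 and 0.132 FPKM in untreated parental cells, 0.125 and 0.146 at 8 h, and 0.0997 and 0.209 at 24 h. In C it went from 0.428 and 0.228 to 0.0243 and 0.0354 and then 0.0421 and 0.00988, and in KD from 0.226 and 0.222 to 0.0182 and 0.0345 and then 0.0337 and 0.0180. Treated shRNA libraries were far below the untreated ones, while parental groups overlapped. With no filter the fall passed in C (-0.36 and -0.37 at 8 h and 24 h, limma adjusted p = 0.00161 and 0.0011) and in KD (-0.25 at both, adjusted p = 0.00836 and 0.00716, where 45.5% of genes passed at 8 h). Its level is uncertain, because 51.5% of its 50-base stretches also occur in its neighbour I830012O16Rik (Ifit3b), and counting could split such reads either way. Ifit1 ranged from 0.0179 to 0.109 FPKM over all libraries. Its C libraries read 0.107 and 0.0452 untreated and 0.0179 and 0.0196 at 8 h (-0.08, adjusted p = 0.0369), and it passed in no other comparison.

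Knockdown and control cells were then compared at each time, to ask whether these genes differ when lamin B1 is reduced. In untreated cells none of the 5 tested genes passed (19.7% of all tested genes did), and Stat2 and Irf1 had an unadjusted p under 0.05. The difference of KD from C was -0.30 for Stat2 (log2 scale, 95% interval -0.54 to -0.06, limma adjusted p = 0.0836). It was 0.19 for Irf1 (adjusted p = 0.0626), 0.16 for Ifit2 (adjusted p = 0.169), 0.03 for Irf9 and 0.01 for Bst2. The Irf1 difference passed after quantile normalization (adjusted p = 0.0461) and without the first C library (0.28, adjusted p = 0.0094). At 8 h 1 of the 5 passed (35.8% of all genes did): Ifit2 was lower in KD, at 0.589 times the C level (-0.31 ± 0.0747, SE, 95% interval -0.48 to -0.14, adjusted p = 0.0125). Both KD libraries (0.527 and 0.529 FPKM) were below both C libraries (0.969 and 0.824). Every library of this comparison was thus under the filter of 1 FPKM, which Ifit2 passed mostly through untreated libraries. That call was lost when the first C library (adjusted p = 0.0878), the first KD library (0.061) or the second KD library (0.0603) of 8 h was left out. At 24 h none passed (28.3% of all genes did), with Ifit2 (-0.18, adjusted p = 0.0973) the only one with an unadjusted p under 0.05. Without the second KD library of 24 h, Bst2 (-0.38), Ifit2 (-0.28) and Stat2 (-0.26) were lower in KD, and these differences rest on 1 KD library. With no filter Isg15 was higher in KD at 24 h (0.41, adjusted p = 0.0373, where 15.8% of genes passed), with 0.914 and 1.10 FPKM against 0.446 and 0.578.

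The response to TGF-β was compared between KD and C with an interaction term. At 8 h 1 of the 5 tested genes passed (4.06% of all genes did): the fall of Ifit2 was larger in KD, with a difference of responses of -0.47 ± 0.106 (SE, log2 scale, limma adjusted p = 0.0475). Ifit2 was under 1 FPKM in every 8 h library of KD and C. This call lies at the threshold and was lost with an added constant of 0.1 (adjusted p = 0.0548), with no filter (0.0604) and in 7 of 8 fits without 1 library (adjusted p = 0.0789 to 0.17), the exception being the fit without the second untreated C library. For Irf1 the 8 h difference of responses was -0.30 ± 0.0856, which did not pass (adjusted p = 0.0877) except without the first untreated C library (-0.39, adjusted p = 0.0282). At 24 h none passed (4.72% of all genes did), and Ifit2 (-0.34, adjusted p = 0.101) was the one with an unadjusted p under 0.05. Without the second KD library of 24 h it passed (-0.45, adjusted p = 0.0279). The 24 h differences of the other 4 ran from -0.21 for Bst2 to 0.22 for Stat2, and that of Stat2 passed without the first KD library of 24 h (0.40, adjusted p = 0.0208).

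Parental and C libraries are set side by side with no test, because their tables were normalized separately. Without TGF-β, 5 of the 9 genes were higher in both parental libraries than in both C libraries, beside 30.4% of 17187 genes. At 8 h it was 9 of 9 (42.9% of 17170 genes) and at 24 h 8 of 9 (47.4% of 17268 genes), and none was higher in C at any time. The ratio of the parental to the C mean was 1.85, 1.57 and 1.58 for Irf1 at the 3 times, and 1.16, 1.54 and 1.76 for Stat2. For Ifit2 it was 1.45, 2.41 and 3.11, and for Bst2 1.18, 1.15 and 1.53. An effect of infection on these genes was not tested, and it cannot be told apart from the separate normalization.

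The wider pathway was read from 7 lists of 105 genes, from which the 9 genes were left out. These lists were also chosen with earlier results of these data known. Of the interferons, 10 were measured and none reached 1 FPKM. The highest value was 0.0653 FPKM, and 9 were at 0 in every parental library and 7 in every shRNA library. Receptors and kinases were present throughout, with Ifnar2 at group means of 19.1 to 28.7 FPKM. At 24 h of TGF-β, 5 of the 9 receptors and kinases rose and 2 fell in parental cells, 6 rose and 3 fell in C, and 6 rose and 2 fell in KD. Of all tested genes, 33.4% rose and 37.1% fell at 24 h in parental cells, 25.5% and 45.1% in C, and 28.6% and 43.3% in KD. Ifnar1, a chain of the type I receptor, rose at 24 h in all 3 (0.63, 0.57 and 0.67, limma adjusted p = 3.47e-05, 2.39e-05 and 7.42e-06). Jak1 rose with it (0.37, 0.44 and 0.39, adjusted p = 0.000273, 1.95e-05 and 3.75e-05), and so did Tyk2 (0.28, 0.36 and 0.32, adjusted p = 0.00135, 0.000492 and 0.00101).

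Jak2 and the chains of the γ receptor did not move together. Jak2 rose at 8 h in parental cells (17.0 to 30.6 FPKM, 0.81), in C (15.2 to 30.8 FPKM, 0.97) and in KD (16.9 to 42.3 FPKM, 1.27), with limma adjusted p of 4.46e-05, 6.8e-05 and 1.04e-05. Ifngr2 fell at 24 h, from 77.3 to 28.9 FPKM in parental cells (-1.39, adjusted p = 1.9e-06), from 45.3 to 19.4 in C (-1.18, adjusted p = 4.9e-07) and from 44.8 to 23.0 in KD (-0.93, adjusted p = 1.98e-06). Ifngr1, the other chain, stood at 47.5 and 48.0 FPKM in untreated parental cells and 42.9 and 45.2 at 24 h. It went from 54.8 and 47.1 to 38.2 and 40.2 in C, and from 65.3 and 63.2 to 54.5 and 66.3 in KD. Irf3, the factor that starts interferon transcription, passed in none of the 11 comparisons.

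Response genes outside the 9 did not share 1 direction either. Among other type I response genes tested, 8 of 18 rose and 5 fell in parental cells at 24 h, 10 rose and 4 fell in C, and 11 rose and 5 fell in KD, beside the all-gene shares of 33.4% and 37.1%, 25.5% and 45.1%, and 28.6% and 43.3%. Irgm1, an immunity-related GTPase, rose at 24 h from 23.1 to 62.0 FPKM in parental cells (1.39, limma adjusted p = 6.18e-07), from 28.6 to 65.2 in C (1.17, adjusted p = 5.6e-06) and from 40.7 to 94.6 in KD (1.19, adjusted p = 4.58e-06). Ube2l6, the conjugating enzyme for Isg15, rose at 24 h in parental cells (1.16, adjusted p = 0.00021) and in C (0.94, adjusted p = 1.39e-05). Mx1, an antiviral GTPase, fell in parental cells from 6.16 FPKM to 0.661 at 8 h and 0.117 at 24 h (-2.11 and -2.68, adjusted p = 2.81e-05 and 1.07e-06). Of the γ-response genes tested, 5 of 6 rose and none fell in parental cells at 24 h, and 3 of 4 rose and 1 fell in both C and KD. Over all 7 lists 24 genes rose and 15 fell of 54 tested in parental cells at 24 h, 23 and 17 of 51 in C, and 24 and 18 of 51 in KD, with median log2 differences of 0.14, 0.05 and 0.09. In all 72.2, 78.4 and 82.4% of the list genes tested were called, beside 70.5, 70.7 and 71.9% of all genes.

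**Figure D3:**
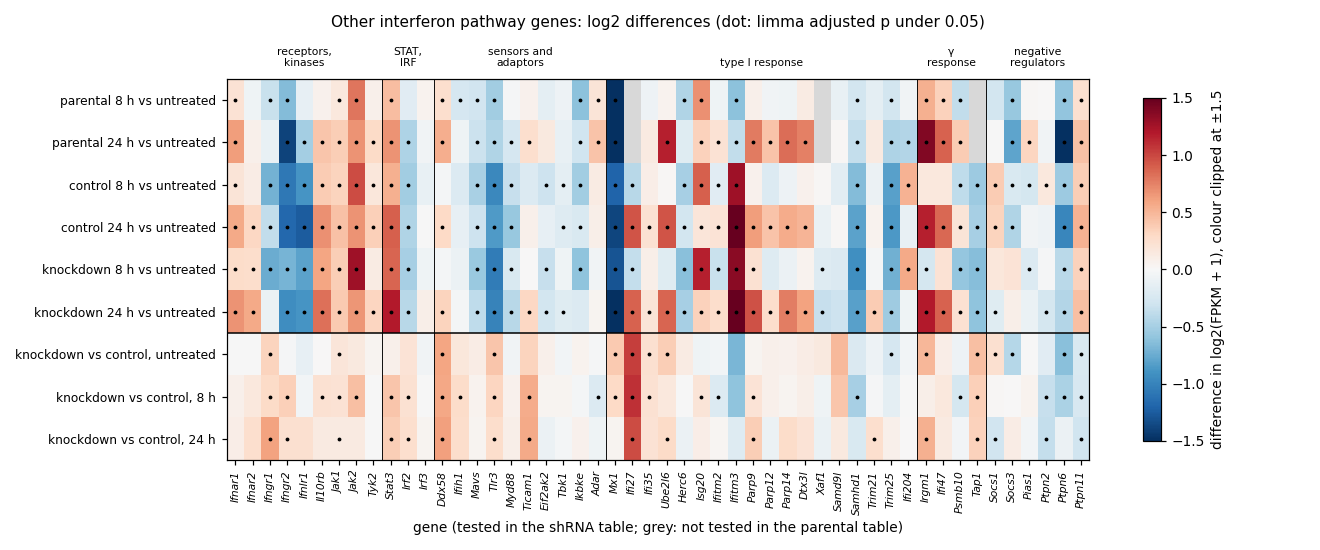
Colour gives the difference in log2(FPKM + 1) of other pathway genes (columns, grouped by list) in each comparison (rows), clipped at 1.5 either way, with a dot where limma's adjusted p was under 0.05 and grey where a gene was not tested. Rises and falls stand side by side within most lists, and Ifi27 is the darkest column in the 3 knockdown rows, at 1.04, 1.10 and 0.98.

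Between KD and C, list genes called higher outnumbered those called lower at each time. In untreated cells 11 were higher and 4 lower of 51 tested, at 8 h 18 and 7, and at 24 h 15 and 3, with medians of 0.06, 0.07 and 0.11 beside all-gene medians of -0.01, 0.01 and 0.02. Of all tested genes, 10.6% were higher and 9.09% lower in untreated cells, 19.3 and 16.5% at 8 h, and 16.8 and 11.5% at 24 h. The number called depended on the fit: leaving out 1 of the 4 libraries at 8 h gave 12 to 15 in place of 25, and a fit of the compared groups alone gave 6 in place of 15 without TGF-β and 4 in place of 18 at 24 h. Ifi27, an interferon-induced mitochondrial protein, stood at group means of 10.8 FPKM in KD against 4.82 in C without TGF-β, 8.15 against 3.28 at 8 h, and 20.6 against 10.0 at 24 h. Its differences were 1.04, 1.10 and 0.98 (log2 scale, limma adjusted p = 0.00187, 0.000673 and 0.00177), of which the first did not pass in a fit of the compared groups alone (adjusted p = 0.0596). Ddx58, which encodes the RNA sensor RIG-I and was singled out after its values were seen, was higher in KD by 0.59, 0.58 and 0.62 (adjusted p = 0.00152, 0.000773 and 0.000919), at 2.98 against 1.65 FPKM without TGF-β. Ticam1, an adaptor of Toll-like receptors, was higher by 0.56 at 8 h and 0.57 at 24 h (adjusted p = 0.0041 and 0.00519). Other response genes were lower in KD. Samhd1 differed by -0.49 and Psmb10 by -0.26 at 8 h (adjusted p = 0.00401 and 0.0203). Trim25 differed by -0.25 without TGF-β (adjusted p = 0.0201). Of the negative regulators, 3 of 6 were lower at each time, and 1 was higher without TGF-β. The 3 changed with time, and only Ptpn11 was lower at every time. Ifit2, Bst2, Stat2, Irf9 and Irf1 were called higher in KD at none of the 3 times. Whether the differences in Ifi27, Ddx58, Ticam1, Samhd1, Psmb10 and Trim25 come with the lamin B1 level or with the shRNA that lowered it cannot be told apart.

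Lamin B1 ChIP-seq of low-sonicated chromatin and ATAC-seq, which marks open chromatin, gave 1 library per time in cells without TGF-β and after 8 h and 24 h, so peaks are described with no test. A lamin B1 peak lay over 2 of the 9 genes (from 2500 bp upstream of the TSS to the 3′ end) without TGF-β, 3 at 8 h and 1 at 24 h. The shares of 21213 genes were 19.7, 38.6 and 29.2%. The same 2, 3 and 1 genes had it within 500 bp of the TSS, against 15.3, 30.2 and 23.7% of genes. Irf1 had a peak over its TSS at all 3 times, with MACS scores of 105.42, 179.61 and 106.51. Stat2 had one without TGF-β (80.87) and at 8 h (95.45) and none at 24 h. Bst2 had one at 8 h only (59.76), beside a peak 5 to 6 kb upstream at all times (71.72, 79.72 and 63.33). The 8 h list is the longest, at 10484 peaks against 4645 and 7083, and the 8 h peak over Bst2 scored below its median of 79.42. No lamin B1 peak lay over Irf7, Irf9, Isg15, Ifit1, Ifit2 or Ifit3, and the nearest to Ifit1 was over 9 kb upstream at 24 h.

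ATAC peaks lay over 1 of the 9 genes without TGF-β, 1 at 8 h and 6 at 24 h, against 36.8, 32.7 and 59.6% of 21213 genes, and within 500 bp of the TSS for the same 1, 1 and 6, against 30.4, 24.8 and 46.7%. Stat2 was the gene with a peak at every time (scores 212.49, 101.07 and 434.09). At 24 h Irf1 (256.88), Bst2 (240.57), Irf9 (142.85), Ifit2 (142.37) and Irf7 (104.04) joined it. The 24 h list is much longer, at 33811 peaks against 9782 and 10340, and when the lists were cut to equal length 1 gene remained at 24 h in place of 6. Isg15 had a peak beyond its 3′ end at each time, between 2278 and 3945 bp from its TSS, and none was found within 10 kb of Ifit1 or Ifit3.

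**Figure D4:**
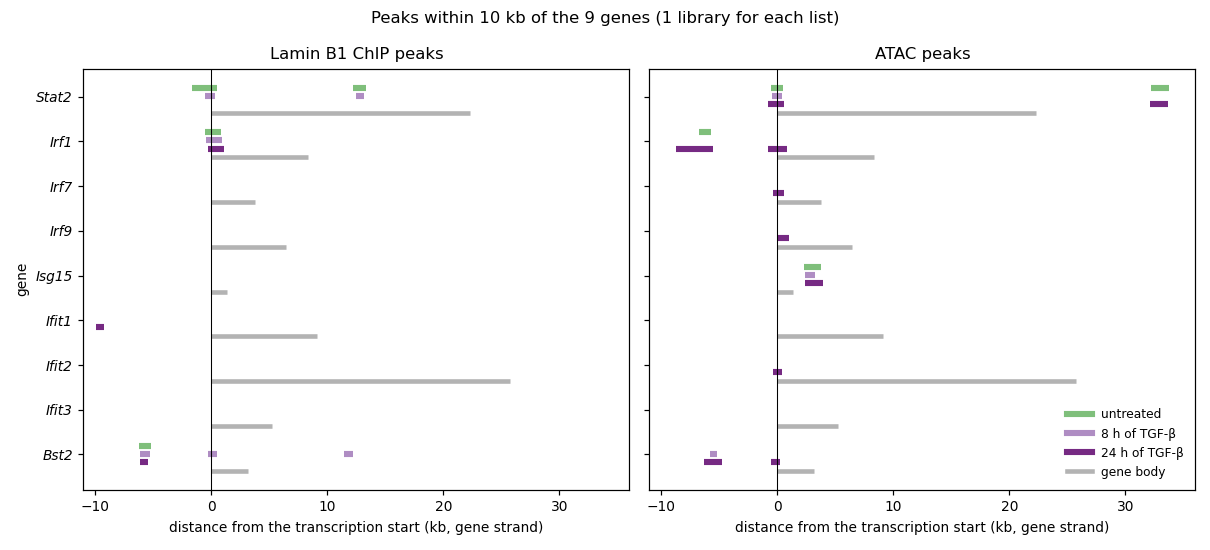
Peaks (coloured bars) within 10 kb of each of the 9 genes, by distance in kb from the transcription start on the gene's strand (x axis), for lamin B1 ChIP-seq on the left and ATAC-seq on the right, with the gene body in grey. Irf1 carried a lamin B1 peak at its start at all 3 times. An ATAC peak within 500 bp of the start was called only at 24 h, in the longest list, for 5 genes.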

How the data were processed

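RNA-seq values were deposited by the authors as FPKM, with 1 column per library, in 1 table of 6 parental and 1 of 12 shRNA libraries. The submitters' processing notes name TopHat, Bowtie, Cufflinks and mm9 without versions, and the annotation behind FPKM is not given in the sources used here. Peak lists of lamin B1 ChIP-seq and ATAC-seq were deposited with a MACS score per peak. Neither table names its columns, which were assigned from the order of names in the labels. The members and gene lists were chosen with earlier results of these data known.

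Values were analysed as log2(FPKM + 1) with limma 3.58.1 in R 4.3.3 (lmFit and eBayes with trend), each table in its own fit, over genes that reached 1 FPKM in 2 or more libraries. P-values were Benjamini-Hochberg adjusted over all tested genes, and a gene passed, or was called, at an adjusted p under 0.05. A fold change on this scale understates the change of low genes. Depth is unknown, so no interval from counts could be given. The script was tested on simulated data. Each result was recomputed after quantile normalization, with 0.1 as the constant, without the filter, on the compared groups alone, without each library, and with the replicate number as a block. Named genes were the 9 members, Lmnb1, Ifnar1, Ifnar2, Jak1, Tyk2, Irf3, any interferon reaching 1 FPKM, close paralogs, and per comparison up to 3 called list genes in each direction with the largest change, no overlap between groups and a group mean of at least 5 FPKM, of which those with most bearing are described. Any overlap of at least 1 bp counted for peaks, with GENCODE M1 genes on mm9. Promoters and shared 50-base stretches came from RefSeq GRCm38.p6 and the GENCODE transcripts. Hi-C data were not analysed here, and 1 gene of the pathway lists is counted in them but not reported here.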

Additional observations from a re-analysis of the deposited data

Results flagged for a closer look

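Among the 9 genes, 1 response to TGF-β differed between knockdown and control shRNA cells by its interaction term: Ifit2 at 8 h (-0.47 on the log2 scale, limma adjusted p = 0.0475). That call was lost with no filter, with an added constant of 0.1 and in 7 of 8 fits without 1 library. Among the other pathway genes named, Socs3, a feedback inhibitor of JAK kinases, differed at 24 h by 0.54 (adjusted p = 0.0463), and Mx1 differed at 24 h by -0.36. In a fit of the compared groups alone neither passed (Socs3 adjusted p = 0.149, Mx1 adjusted p = 0.158). Of the low negative regulators, Socs1 differed at 24 h by -0.52 (limma adjusted p = 0.0232), opposite in sign to Socs3. Ptpn6 differed by 0.54 (adjusted p = 0.0398). Their means in knockdown cells at 24 h were 0.910 and 0.105 FPKM. Socs3 did not pass with no filter (adjusted p = 0.0714) or with the replicate block (adjusted p = 0.0645) either. Its call was also lost without either untreated knockdown library, either 24 h control library or the second 24 h knockdown library, with differences of 0.47 to 0.61.

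For other genes, every treated parental library lay on one side of the untreated ones, and every treated library of 1 kind of infected cells, or of both for Ifitm3, on the opposite side of its own. These differences were not tested, since the tables were normalized separately. Stat2 differed from untreated by 0.15 in parental and -0.18 in control cells at 8 h, and by 0.19 and -0.30 at 24 h, and of these 4 values only the last passed. Ifitm3, a membrane protein that restrains virus entry, fell in parental cells by -0.61 at 8 h and -0.37 at 24 h, and rose by 1.27 and 1.78 in control and 1.36 and 2.26 in knockdown cells. Its untreated means were 52.6 FPKM in parental, 4.99 in control and 2.74 in knockdown cells. Socs3 was at -0.56 and -0.79 in parental cells and 0.20 and 0.09 in knockdown cells, with control cells at -0.23 and -0.45. Neither knockdown value of Socs3 passed (limma adjusted p = 0.0645 and 0.395). The 8 h one passed after quantile normalization (0.34, adjusted p = 0.00942) and in the compared groups alone (adjusted p = 0.0112). Irgm1 at 8 h was at 0.53 in parental and -0.26 in knockdown cells.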

How the results depend on the processing

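Of 525 repeats of single results for the 9 genes, 486 stayed on the same side of the threshold, 23 lost and 16 gained a call, and 0 reversed. In 22 repeats the sign changed while the result was called in neither fit. Of 105 repeats of the numbers of called genes among the 9, 66 were identical. Outside the fits without 1 library, the numbers that moved by more than 1.5-fold were as follows. With no filter they went from 3 to 6 (control 8 h), 3 to 5 (knockdown 24 h), 0 to 1 (knockdown against control, 24 h) and 1 to 0 (interaction, 8 h). An added constant of 0.1 and the replicate block also took that interaction to 0. In the compared groups alone parental 24 h went from 2 to 4, and quantile normalization took knockdown against control without TGF-β from 0 to 1. Leaving out 1 library gave 2 to 4 and 1 to 2 in parental, 3 to 4 and 3 to 4 in control and 2 to 2 and 3 to 4 in knockdown cells (8 h and 24 h). For knockdown against control it gave 0 to 1, 0 to 1 and 0 to 3 (untreated, 8 h, 24 h), and for the interactions 0 to 1 and 0 to 1. Where that left 1 library in a group, it was assumed to vary like the others.

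Replicate numbers did not pair the shRNA samples (r between -0.14 and 0.37 over 15 pairs of groups, 2 of them over 0.1). The replicate block left 8 of 9 member counts as they were, with Ifit2 at an adjusted p of 0.0696 for the 8 h interaction. No paired analysis was possible because the columns carry no replicate number in the parental table.

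Among all genes tested, the fit of the compared groups alone gave 732 called in place of 2254 (knockdown against control, untreated), 710 in place of 3241 (24 h), and 714 and 88 in place of 465 and 540 (interactions, 8 h and 24 h), and the replicate block gave 284 in place of 465. Fits without 1 library also changed the interaction counts of all genes, with most counts well below the main ones and others above. Pathway genes called for the 24 h interaction went from 4 to 2 with the 0.1 constant, quantile normalization or the block, and to 0 in the compared groups alone. Promoters counted to 2500 bp held an ATAC peak for 2 genes in place of 1 without TGF-β and at 8 h. Peaks of at least the median score left 3 of 6 genes at 24 h, and lists of equal length left 1. With 1 mismatch allowed, 8 genes had ISRE and 9 had GAS letters, as did 35.4 and 71.4% of promoters. The depth is unknown, and each group has 2 libraries.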

Other observations

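The genes whose pattern over the 12 shRNA libraries was most like the mean z-score of the 5 tested members were Gnb5 (r = 0.974), Rbm5 (0.972), Phc1 (0.967), Otub1 and Zfp866 (0.963 each), Rnf123 and Ltbp4 (0.961 each) and Exoc7 (0.960). This is a description: the libraries form untreated and treated clusters, and they share their times of TGF-β. Within the score Irf1 went against Stat2, Ifit2 and Bst2 (r = -0.531, -0.571 and -0.692) and not against Irf9 (r = 0.280).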
